A study of Mus musculus with 7 samples.

Results

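The genes described here are 39 interferon-stimulated genes, taken by symbol from the deposited expression table of LSK cells. All 39 symbols were found among the 48440 genes of the table, and all 39 passed the filter used for testing, a mean normalized count of at least 10 (16251 genes). LSK cells are bone marrow (BM) cells without lineage markers that carry Sca1 and cKit, and they include the hematopoietic stem cells. They were sorted from BM chimeric C57BL/6 recipients at day 77 after lethal irradiation (9.5 Gy) and transplantation of unfractionated BM from wild-type donors (4 libraries) or from donors with a constitutive, endonuclease-made PROSER1 knockout (KO; 3 libraries). No treatment other than irradiation and transplantation is given for either group. The KO was present in all donor tissues and not only in blood cells, the recipients were not KO animals, and a marker separating donor from surviving host LSK cells is not given for this sort. The labels call the libraries biological replicates without saying whether each is 1 mouse or a pool, so the p-values measure the spread between these samples.

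Interferons are cytokines, and those of type I are released by cells that sense viral or other nucleic acids. Type I interferon binds a receptor made of Ifnar1 and Ifnar2, the receptor kinases activate Stat2, which works with Irf9 in ISGF3, a factor that binds the interferon-stimulated response element (ISRE) in promoters. Interferon gamma acts through Ifngr1 and Ifngr2 and reaches genes through the gamma-activated site (GAS). The induced genes sense nucleic acid, block viral replication, and feed back on the pathway. In BM, interferon is known to drive quiescent stem cells into division, and stem cells are known to express a set of these genes without infection.

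The libraries held between 33143619 and 45140743 counted read pairs, a depth at which 3 read pairs, the limit that a count of 0 allows for counting error alone, equal 2.54 to 3.48 normalized counts. Normalized counts are read pairs per gene divided by 1 size factor per library. Proser1 itself was at 2019.4 to 2153 normalized counts in wild-type, but at 2338 to 2464 with the KO label. The targeted mRNA was therefore not lower in the KO group, and which group is called KO in every comparison comes from the labels. The cKit and Sca1 genes (Kit and Ly6a) were present, with summed levels of 30232 to 36363 over the 7 libraries and overlapping groups. The 9 genes of the lineage gate summed to 791 to 1419. Plasma cell RNA was present in every library, since immunoglobulin genes took 5.55% to 13.0% of read pairs, most in wild-type replicate 4, and the 2 groups overlapped in this share. Xist, a transcript of female cells, was at 1012 to 3003 normalized counts, also highest in wild-type replicate 4. Ddx3y, a gene of the Y chromosome, was at 3890 to 4421. Every library thus held RNA of female and of male cells. The groups overlapped in both genes, and the part of this mixture in the results was not tested.

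The promoters are shown first, because they carry the sequences by which interferon is known to reach these genes. RefSeq promoter sequence (GRCm38.p6, 250 bases before to 50 after a start site) was on hand for 30 of the 39 genes. Both strands were searched for the ISRE core GAAANNGAAA and the GAS core TTCNNNGAA. An ISRE match was present for 20 of 30 members (66.7%), against 3.99% of all 27025 genes and 3.44% of all 32851 promoters in the same table. A GAS match was present for 9 of 30 (30.0%), against 9.55% of genes and 8.3% of promoters. The runs below are from the members whose 2 groups did not overlap in expression, except Irf9 and Cmpk2, whose promoters held neither motif, and from Ifit1, Ifit3 and Ifit3b because they are commonly used as reporters of interferon action. Each is 24 bases on the strand of the gene, 5′ to 3′, with the match in capitals, and the start site is the RefSeq one. Ifit1, Ifit3 and Ifit3b had 2 ISRE matches each, of which only the 1 nearer the start site is shown.
Gbp3 ISRE (chr3:142559992-142560015, forward strand): gacacagTTTCAGTTTCtatttcc
Gbp3 ISRE (chr3:142559998-142560021, forward strand): gtttcagTTTCTATTTCccagatc
Gbp7 ISRE (chr3:142530276-142530299, forward strand): tgtgcagTTTCAGTTTCagttctc
Gbp7 GAS (chr3:142530223-142530246, forward strand): gttttctTTCCAGGAAaagcagaa
Gbp7 GAS (chr3:142530242-142530265, forward strand): cagaagcTTCTCAGAAagtcagca
Igtp ISRE (chr11:58199515-58199538, forward strand): aggaactGAAACTGAAAgctgttc
Igtp GAS (chr11:58199504-58199527, forward strand): tagccatTTCTAGGAActgaaact
Irgm2 ISRE (chr11:58214906-58214929, forward strand): aggaactGAAACTGAAAgctgttc
Irgm2 GAS (chr11:58214895-58214918, forward strand): tagccatTTCCAGGAActgaaact
Irgm1 ISRE (chr11:48871434-48871457, reverse strand): gtttcaaGAAATAGAAAccgaaac
Irgm1 ISRE (chr11:48871428-48871451, reverse strand): agaaataGAAACCGAAActgattc
Eif2ak2 ISRE (chr17:78882538-78882561, reverse strand): ccgccggGAAAACGAAAcagaaga
Eif2ak2 GAS (chr17:78882734-78882757, reverse strand): cagagctTTCCCAGAAtggaagcc
Oas3 ISRE (chr5:120777718-120777741, reverse strand): gggaggaGAAAACGAAAgtgaagg
Ifit1 ISRE (chr19:34640797-34640820, forward strand): gtctcagTTTCAGTTTCtcactgc
Ifit3 ISRE (chr19:34583400-34583423, forward strand): aagtctgTTTCAGTTTCtactttc
Ifit3b ISRE (chr19:34607796-34607819, forward strand): aagtctgTTTCAGTTTCtactttc

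The 2 matches of Gbp3 began 45 and 39 bases before the start site and overlap each other, as do those of Irgm1 at 30 and 24 bases before it. Igtp and Irgm2 carried the same 24 bases around the ISRE, with a GAS match ending just before it in both. The ISRE windows of Ifit3 and Ifit3b were identical as well. All 6 interferon-inducible GTPase genes had an ISRE match, and 3 of the 6 had a GAS match. Over the 30 members there were 31 ISRE matches, 25 of them before the start site, and 10 GAS matches. In 5 members ISRE matches overlapped each other, and in 2 an ISRE match shared bases with a GAS match. Members with both motifs numbered 7. Of the 8 members with a promoter and an unadjusted limma p under 0.05, 7 had an ISRE match, as did 13 of the 22 others. A match is a stretch of letters in this window and was not tested for binding.

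**Figure D1:**
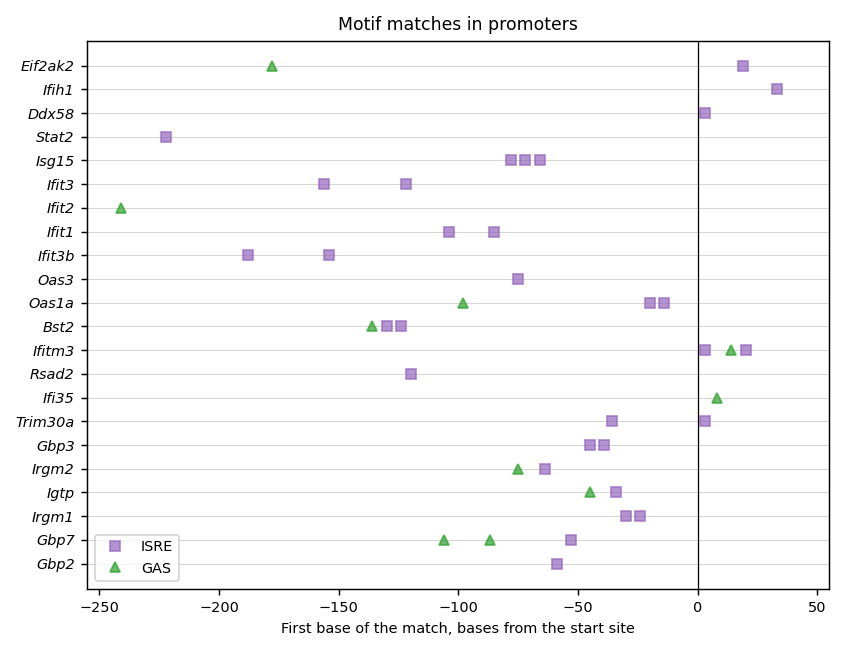
First base of every ISRE (square) and GAS (triangle) match in the RefSeq promoters of the members that had one, in bases from the start site (0). Most of the 31 ISRE matches lie within the promoter before the start site (25), and those of Gbp3 and Irgm1 form overlapping pairs close to it.

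In wild-type LSK cells the 39 genes covered a wide range of levels, compared here as normalized counts per kilobase of exon. Ifitm3, a membrane protein that blocks viral entry, was highest at 8001 (7246 to 8500.1 over the 4 libraries). Bst2, the tetherin that holds budding virions at the cell surface, followed at 2088 (1978 to 2161). Trim30a, a TRIM family protein, came next at 1006 (961 to 1064). The ranges of these genes did not overlap with each other or with the next gene. From Igtp at 901 and Gbp2 at 855 down to Ifit2 at 414, neighbouring genes overlapped in range. So did those from Oas3 at 281 to Mx1 at 108. The order of neighbours within these stretches is therefore not resolved. Their ends were apart, with Igtp at 837 to 952 and Ifit2 at 379 to 440, and Oas3 at 264 to 294 and Mx1 at 96.9 to 129. The lowest were Ifit3 at 66.2, Mx2 at 64.1 and Ifit3b at 10.6. Ifit3b differs little in sequence from Ifit3, so that read pairs of either may have been lost or misassigned and both values are uncertain. The ranges of Ifit3 and Mx2 overlapped, and Ifit3b lay below both.

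**Figure D2:**
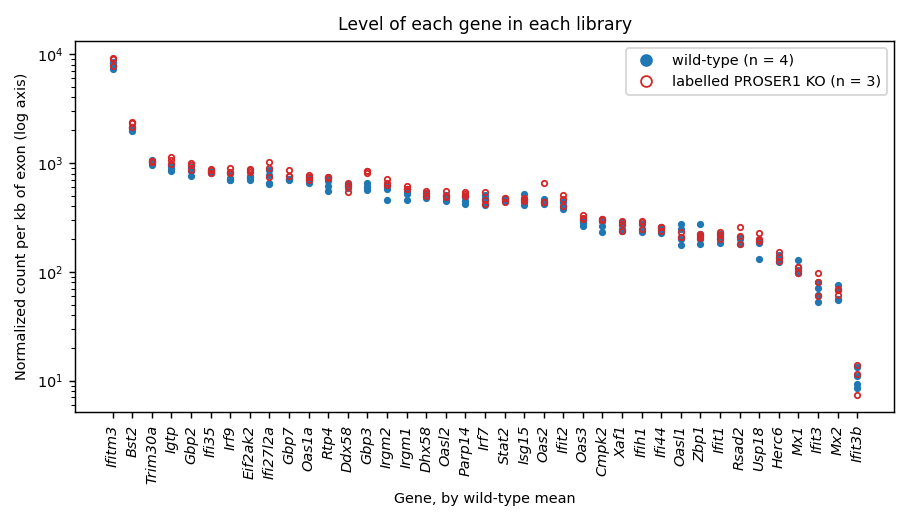
Normalized count per kilobase of exon (log axis) of each gene in each library, ordered by the wild-type mean, with wild-type libraries as filled points and libraries labelled PROSER1 KO as open points. Ifitm3 and Bst2 stand above the rest, Ifit3b stands below, and the points of the groups lie close together for most genes.

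The coefficient of variation between the wild-type libraries had a median of 7.48% over the 39 genes. It was lowest for Gbp7 (1.57%) and Stat2 (1.69%) and highest for Ifit3b (20.6%), whose counts were near 20. By role, the median ran from 4.01% in the nucleic acid sensors to 13.0% in the IFIT family.

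Values of single libraries are given below in the order of the replicate numbers. The comparison of the groups asked whether these genes change with the PROSER1 KO. With the study's thresholds (Benjamini-Hochberg adjusted p under 0.05 and a fold change above 1.5), 0 of 39 members were differentially expressed with limma, where 0.258% of all tested genes were. Without the fold minimum there was 1, Gbp3, against 0.308% of all tested genes. At an unadjusted p under 0.05 there were 9, all higher in the libraries labelled PROSER1 KO, against 5.0% of tested genes in this direction, 4.74% in the opposite one and 9.73% in either. These were Gbp3, Eif2ak2, Igtp, Irf9, Oas3, Gbp7, Irgm2, Irgm1 and Parp14. Without PROSER1 KO replicate 1 there were 5, and without the mean-variance trend also 5. On recovered read pairs, edgeR also gave 0 members past the study's thresholds (0.246% of tested genes) and 9 at an unadjusted p under 0.05 (9.86%). DESeq2 likewise gave 0 (0.873% of the 18903 genes with an adjusted p) and 10 (7.03% of 26202 genes). The 26202 genes were taken without the filter on the mean count, so this share is not on the footing of the limma and edgeR shares over 16251. DESeq2 without the fold minimum gave 2, Gbp3 and Eif2ak2 (1.65% of the 18903 genes).

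Differences were small and mostly of 1 sign. The log2 fold change lay above 0 in 35 of 39 members, against 50.6% of all tested genes. Its median was 0.10, against 0.0015 over all tested genes, and it ran from -0.03 (Zbp1) to 0.47 (Gbp3). The groups did not overlap in 9 members, all higher in the libraries labelled PROSER1 KO (5.17% of tested genes in this direction, 4.83% in the other). They were the first 8 of the genes just listed together with Cmpk2. For 35 of 39 members the 95% interval of the fold change left out a change of 1.5-fold in either direction. The 4 members whose interval reached it were Gbp3, Ifit3, Ifit3b and Ifi27l2a.

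**Figure D3:**
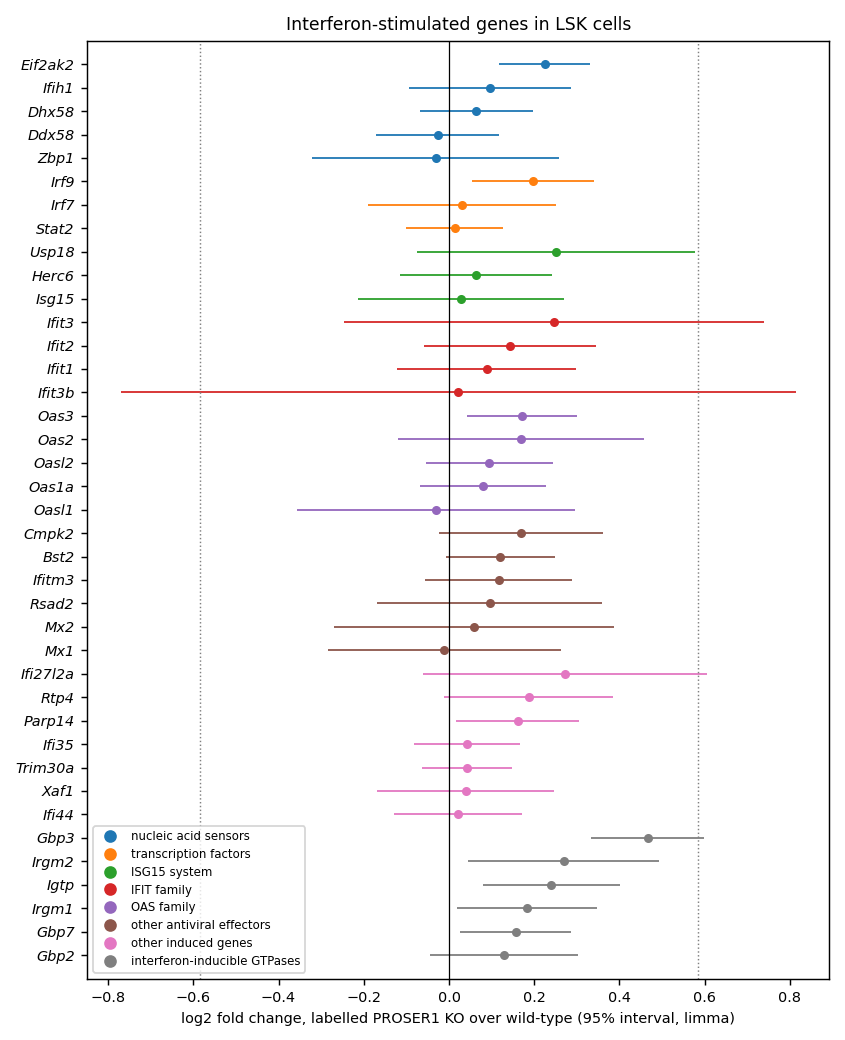
Log2 fold change of each gene in the libraries labelled PROSER1 KO (n = 3) over wild-type (n = 4), with its 95% interval from limma, coloured by role; dotted lines mark 1.5-fold. Of 39 points, 35 lie right of 0 and none lies past a dotted line.

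The same pattern was visible library by library. The deviation of each gene from its own mean over the 7 libraries, on the log2(normalized count + 1) scale, was averaged over the 39 members. These averages were -0.046, -0.059, -0.018 and -0.080 for the wild-type libraries, against 0.096, 0.060 and 0.048 for those labelled PROSER1 KO. Every library labelled PROSER1 KO thus lay above every wild-type library, by 0.12 between the group means, whereas over all tested genes the group means differed by 0.0003 and the groups overlapped. Of the 39 members, 34, 26 and 27 lay above their own mean in PROSER1 KO replicates 1, 2 and 3, while 13, 10, 20 and 9 did so in the wild-type libraries. The share of all tested genes above their mean was 50.5% to 51.3% in each library. The highest of the 7 values fell in 1 of the 3 libraries labelled PROSER1 KO for 32 members. The lowest fell in 1 of the 4 wild-type libraries for 34. The matching shares over all tested genes were not computed, so these 2 counts have no background beside them. The GTPases had the largest difference among the 8 roles (0.24). The other 33 members differed by 0.097 with no overlap, and the 30 members with an unadjusted p of at least 0.05 by 0.086. Those 30 were picked by the p-value of this same comparison. The 33 leave out the role with the largest difference in it. Neither subset is therefore separate support, and the members, read in the same 7 libraries, are not replicates of each other. All of these values are descriptions without a test, since the members were chosen with earlier results known.

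**Figure D4:**
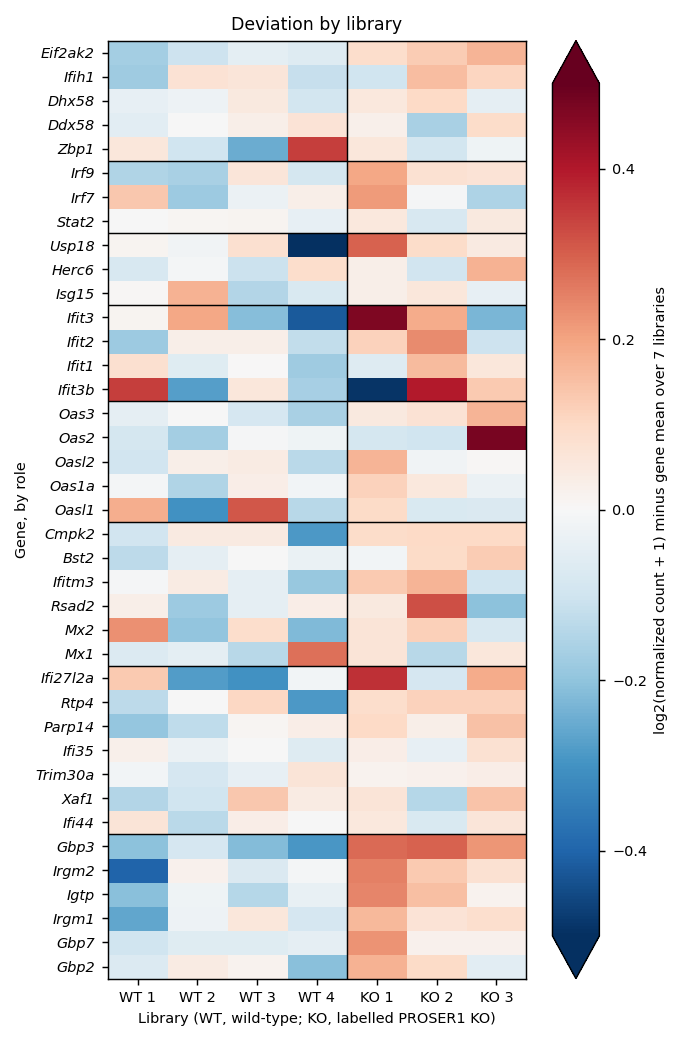
Log2(normalized count + 1) of each gene in each library minus its mean over the 7 libraries, as colour (red above, blue below, with the scale ending at 0.5), genes grouped by role. The block of GTPases at the bottom is red in the 3 libraries labelled PROSER1 KO except for Gbp2 in replicate 3, while the IFIT family and Oasl1 mix both colours within each group.

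The interferon-inducible GTPases act on the membranes around intracellular pathogens and respond strongly to interferon gamma. They comprised 3 guanylate-binding proteins (Gbp2, Gbp3, Gbp7) and 3 immunity-related GTPases (Igtp, Irgm1, Irgm2). All 6 had a log2 fold change above 0 (median 0.21), 5 of 6 had an unadjusted p under 0.05 (5.0% of all tested genes in this direction), and in the same 5 the groups did not overlap (5.17%). Gbp3 (ENSMUSG00000028268, chr3:142560026-142573209, forward strand) had normalized counts of 1964, 2135, 1947 and 1850.2 in the 4 wild-type libraries, against 2757, 2778 and 2635 in the 3 KO-labelled ones. The lowest library labelled PROSER1 KO exceeded the highest wild-type library by more than the range of either group. Group means were 1974 ± 118 (SD, n = 4) and 2724 ± 77.0 (SD, n = 3), 1.38-fold apart (log2 fold change 0.47 with SE 0.059, limma adjusted p = 0.0116, 95% interval 0.33 to 0.60), below the minimum of 1.5-fold. Its adjusted p exceeded 0.05 in limma without PROSER1 KO replicate 1 (0.0595), without replicate 2 (0.0669) and without the mean-variance trend (0.0917), and ran from 8.1e-09 (DESeq2) to 0.0493 in the other fits without a replicate block. Gbp3, Gbp7 and Gbp2 lie in a cluster on the chromosome that carries Proser1, 89.1 Mb from it in the case of Gbp3.

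Igtp (ENSMUSG00000078853, chr11:58199556-58207591, forward strand), also known as Irgm3, had 1691, 1926, 1770.1 and 1902 in wild-type, against 2315, 2172 and 1976 in the KO-labelled libraries. PROSER1 KO replicate 3 was close to the highest wild-type library, and the groups were separated by a narrow gap (log2 fold change 0.24 with SE 0.071, limma adjusted p = 0.303). Irgm2 (ENSMUSG00000069874, chr11:58199618-58222782, forward strand) had 1679, 2252, 2108 and 2204 in wild-type, against 2641, 2429 and 2339.7 in the KO-labelled libraries. Wild-type replicate 1 was the low value of its group (log2 fold change 0.27 with SE 0.10, limma adjusted p = 0.415), and without it the log2 fold change of Irgm2 was 0.17. The exons of Igtp and Irgm2 overlap on the same strand, so that their values are not independent and each is uncertain. Irgm1, a regulator of the other immunity-related GTPases, lies elsewhere on the same chromosome (ENSMUSG00000046879, chr11:48861968-48871683, reverse strand) and had 2667, 3142, 3319.5 and 3009 in wild-type, against 3577, 3349 and 3382 in the KO-labelled libraries (log2 fold change 0.18 with SE 0.073, limma adjusted p = 0.449). Wild-type replicate 1 was again lowest, and wild-type replicate 3 lay just under the lowest KO-labelled value.

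Gbp7 (ENSMUSG00000040253, chr3:142530342-142550149, forward strand) was the most even member in wild-type, at 3887, 3997, 3988 and 4032, and stood at 4872, 4228 and 4223 with the KO label (log2 fold change 0.16 with SE 0.058, limma adjusted p = 0.414). PROSER1 KO replicate 1 was the high value, and the log2 fold change was 0.088 without that library. Gbp2 had 2128, 2294, 2254 and 1927 in wild-type, against 2516, 2385 and 2151 in the KO-labelled libraries, and its groups overlapped (log2 fold change 0.13 with SE 0.077, limma adjusted p = 0.628). Its log2 fold change was 0.077 without wild-type replicate 4 and 0.078 without PROSER1 KO replicate 1. The guanylate-binding proteins are close relatives, and how read pairs shared between them were counted is not given. In the wider family outside the 39 members (Gbp4, Gbp5, Gbp6, Gbp8, Gbp9, Iigp1, Ifi47, Tgtp1 and Tgtp2, grouped after their values were seen), 4 of 9 lay above 0, with a median log2 fold change of -0.03. Iigp1 had 1337, 1742, 1415 and 1592 in wild-type, against 2291, 1997 and 1784 in the KO-labelled libraries (log2 fold change 0.41 with SE 0.11, limma adjusted p = 0.222), and Gbp5 was next at a log2 fold change of 0.22 (limma adjusted p = 0.309), both without overlap of the groups. Gbp4, Gbp6, Gbp8 and Gbp9 had log2 fold changes of -0.28, -0.31, -0.37 and -0.19 with overlapping groups. Exons of Gbp4, Gbp8 and Gbp9 overlap on the same strand, so that their values are not independent and each is uncertain.

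**Figure D5:**
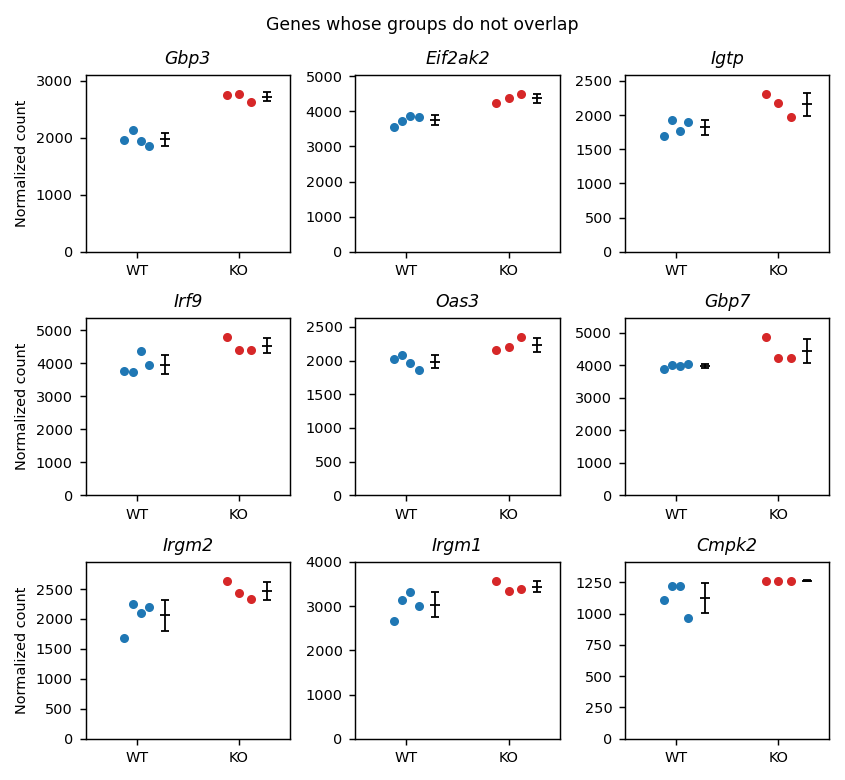
Normalized counts of the 9 members whose groups did not overlap, 1 point per library (blue, wild-type; red, labelled PROSER1 KO), with mean and SD beside the points and each axis starting at 0. Gbp3 shows a wide gap between the groups, and in Igtp, Irf9, Oas3, Irgm1 and Cmpk2 the nearest points of the groups almost touch.

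Among the nucleic acid sensors, Eif2ak2 (ENSMUSG00000024079, chr17:78852564-78882573, reverse strand) encodes PKR, the kinase that stops translation when it binds double-stranded RNA. It had 3559.9, 3730.2, 3869 and 3829 in the 4 wild-type libraries, against 4253, 4368 and 4509.5 in the 3 KO-labelled ones. Every KO-labelled value lay above every wild-type value, with a gap wider than the range of the wild-type values. Group means were 3747 ± 138 (SD, n = 4) and 4377 ± 128 (SD, n = 3) (log2 fold change 0.22 with SE 0.048, limma adjusted p = 0.132). DESeq2 gave an adjusted p of 0.00805 for the same gene, and over the other fits this value ran from 0.0742 to 0.396. In the other 4 sensors the groups overlapped. Ifih1, which encodes MDA5, had 1900.1, 2259.96, 2243 and 1986 in wild-type, against 2010.2, 2393 and 2321 in the KO-labelled libraries (log2 fold change 0.10 with SE 0.084, limma adjusted p = 0.759). Its log2 fold change was 0.050 without wild-type replicate 1, 0.17 without PROSER1 KO replicate 1 and 0.047 without replicate 2. The sensor RIG-I (Ddx58) and its relative LGP2 (Dhx58) had log2 fold changes of -0.03 and 0.06, and Zbp1, a sensor of Z-form nucleic acid, one of -0.03.

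Of the 3 transcription factors of the pathway among the members, 1 had groups without overlap. This was Irf9, the DNA-binding subunit of ISGF3, with 3778, 3745, 4370.1 and 3939 in wild-type, against 4792, 4415 and 4393 in the KO-labelled libraries. The lowest KO-labelled library (4393) was barely above wild-type replicate 3 (4370.1), which was itself apart from the other wild-type values (log2 fold change 0.20 with SE 0.064, limma adjusted p = 0.345). Exons of Irf9 overlap those of Rnf31 on the same strand, whose log2 fold change was -0.03. Stat2, its partner in ISGF3, had 2724, 2747, 2756 and 2655 in wild-type, against 2834, 2584 and 2824 in the KO-labelled libraries. The wild-type values lay within the range of the KO-labelled ones, with a log2 fold change of 0.01 and a 95% interval of -0.10 to 0.13 (limma adjusted p = 0.961). Irf7, which amplifies the interferon response, had 1916, 1539, 1710.3 and 1784 in wild-type, against 2024, 1738 and 1572 in the KO-labelled libraries, with wide overlap (log2 fold change 0.03 with SE 0.10, limma adjusted p = 0.953).

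In the ISG15 system, a ubiquitin-like modifier is attached to proteins by enzymes such as Herc6 and removed by Usp18, which also damps the receptor. Isg15 itself had 347, 390.3, 313 and 328 in wild-type, against 354, 360.5 and 336 in the KO-labelled libraries (log2 fold change 0.03 with SE 0.11, limma adjusted p = 0.962). Usp18 had 525, 514, 549 and 366 in wild-type, against 638, 554 and 537 in the KO-labelled libraries, and wild-type replicate 4 alone lay far below the other libraries (log2 fold change 0.25 with SE 0.14, limma adjusted p = 0.614). Without that library the log2 fold change of Usp18 was 0.12. Herc6 had 1176, 1236, 1154 and 1319 in wild-type, against 1269, 1162 and 1404 in the KO-labelled libraries (log2 fold change 0.06 with SE 0.080, limma adjusted p = 0.853). The groups overlapped in all 3 genes.

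The IFIT proteins bind foreign RNA and are among the first genes that interferon induces. All 4 had a log2 fold change above 0 (50.6% of all tested genes did), and 0 of 4 had an unadjusted p under 0.05 (9.73%). Ifit2 had 1489.5, 1726, 1729 and 1555 in wild-type, against 1831, 1991 and 1575 in the KO-labelled libraries (log2 fold change 0.14 with SE 0.090, limma adjusted p = 0.650). Its log2 fold change was 0.066 without PROSER1 KO replicate 2 and 0.24 without replicate 3. Ifit3 had 124, 141, 106 and 91.6 in wild-type, against 170.04, 139.6 and 105 in the KO-labelled libraries, and these ranges overlapped widely (log2 fold change 0.25 with SE 0.22, limma adjusted p = 0.764). Its log2 fold change was 0.14 without wild-type replicate 4, 0.084 without PROSER1 KO replicate 1 and 0.43 without replicate 3. Ifit1 had a log2 fold change of 0.09 (95% interval -0.12 to 0.30). For Ifit3b, at 14.6 to 27.9 normalized counts, the interval of -0.77 to 0.81 does not exclude a change past 1.5-fold in either direction.

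The OAS enzymes make the 2′-5′ oligoadenylates that activate RNase L, and Oasl1 and Oasl2 are OAS-like relatives. Oas3 (ENSMUSG00000032661, chr5:120753098-120777661, reverse strand) had 2022, 2081, 1967 and 1865 in wild-type, against 2156, 2194 and 2348 in the KO-labelled libraries. Its groups were separated by less than 100 normalized counts (log2 fold change 0.17 with SE 0.058, limma adjusted p = 0.373). Oasl2 had 2927, 3192, 3224 and 2849 in wild-type, against 3524, 3096 and 3144 in the KO-labelled libraries (log2 fold change 0.09 with SE 0.066, limma adjusted p = 0.693), with overlap, and its log2 fold change was 0.062 without wild-type replicate 4 and 0.036 without PROSER1 KO replicate 1. Oas2 had 1962, 1853, 2074 and 2052 in wild-type, against 1963, 1945 and 2898 in the KO-labelled libraries, where PROSER1 KO replicate 3 stood apart from 6 similar libraries (log2 fold change 0.17). Without that library its log2 fold change was -0.02. Oas1a and Oasl1 had log2 fold changes of 0.08 and -0.03, and Oas1a has close paralogs that could share its reads.

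Of the other antiviral effectors, Cmpk2 (ENSMUSG00000020638, chr12:26469204-26479837, forward strand), a mitochondrial nucleotide kinase next to Rsad2, had 1105, 1218, 1217 and 967 in wild-type, against 1258, 1263 and 1263 in the KO-labelled libraries. The 3 KO-labelled values were nearly equal and only slightly above wild-type replicates 2 and 3 (log2 fold change 0.17 with SE 0.086, limma adjusted p = 0.563). Without wild-type replicate 4, the lowest library, the log2 fold change of Cmpk2 was 0.098. Bst2 had 1786, 1895, 1952 and 1910.5 in wild-type, against 1934, 2085 and 2131 in the KO-labelled libraries (log2 fold change 0.12 with SE 0.057, limma adjusted p = 0.533), and 1 KO-labelled library fell within the wild-type range. Ifitm3, the member with the highest level, had 5582, 5763, 5441 and 4913 in wild-type, against 6135, 6299 and 5237 in the KO-labelled libraries. It overlapped between groups (log2 fold change 0.12 with SE 0.076, limma adjusted p = 0.666), and its log2 fold change ran from 0.066 without PROSER1 KO replicate 2 to 0.20 without replicate 3. Rsad2, which encodes viperin, had a log2 fold change of 0.10. Mx1 and Mx2, dynamin-like GTPases whose intact forms resist viruses and which are known to be defective in C57BL/6 mice, had log2 fold changes of -0.01 and 0.06, and Mx2 is annotated as a polymorphic pseudogene.

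Among the 7 remaining induced genes, all had a log2 fold change above 0 and 0 had groups without overlap. Parp14, an ADP-ribosyltransferase, had 3943, 4123, 4538 and 4614 in wild-type, against 4834, 4597 and 4991 in the KO-labelled libraries (log2 fold change 0.16 with SE 0.064, limma adjusted p = 0.450). PROSER1 KO replicate 2 fell just under wild-type replicate 4. Rtp4 had 1319, 1443, 1554 and 1185 in wild-type, against 1536, 1569 and 1569 in the KO-labelled libraries (log2 fold change 0.19 with SE 0.088, limma adjusted p = 0.531), with the KO-labelled values on either side of the highest wild-type value and a log2 fold change of 0.12 without wild-type replicate 4. Trim30a had 4151, 3951, 4072 and 4374 in wild-type, against 4238, 4247 and 4286 in the KO-labelled libraries (log2 fold change 0.04, 95% interval -0.06 to 0.15). Ifi27l2a had the largest difference of this group, 0.27, on counts of 295 to 469 that overlapped between groups (limma adjusted p = 0.590), and it was 0.17 without PROSER1 KO replicate 1. Ifi35, Xaf1 and Ifi44 had log2 fold changes of 0.04, 0.04 and 0.02.

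The pathway around these genes was read from 6 further lists with 60 genes and from 57 interferon-stimulated genes outside the 39. Over all 117 genes, 104 were tested, 0 were differentially expressed with limma, and 11 had an unadjusted p under 0.05, 8 higher and 3 lower, a share close to the 9.73% of all tested genes. Of the 12 interferon ligand genes, 10 were listed at 0 in every library. Only Ifng passed the filter, at 15.4, 18.9, 11.5 and 10.4 in wild-type, against 17.7, 14.4 and 21.1 in the KO-labelled libraries (limma adjusted p = 0.823). The other ligand above 0, Ifnz, did not exceed 5.75. Of the 12 ligand genes looked up, Ifng was thus the 1 with counts clearly above the limit of 3 read pairs, and ligand genes outside the list were not looked up.

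Receptor mRNA was present in both groups. Of the 6 receptor genes, 1 (Ifngr2) had an unadjusted p under 0.05, against 9.73% of all tested genes. Ifnar1 had 4200.3, 4239.6, 4232 and 4208 in wild-type, against 4638, 4099.8 and 4788 in the KO-labelled libraries (log2 fold change 0.09 with SE 0.057, limma adjusted p = 0.640). Ifnar2 had 3863, 3669.9, 3844 and 3843 in wild-type, against 4247, 3789 and 3688 in the KO-labelled libraries (log2 fold change 0.04), and wild-type replicate 2 stood below 3 nearly equal values. Ifngr1 had 4486, 4179, 4207 and 4053 in wild-type, against 4575, 4267 and 4021 in the KO-labelled libraries (log2 fold change 0.02). Ifngr2, the signalling chain of the interferon gamma receptor, had 986, 993, 1057 and 1013 in wild-type, against 1124, 1122 and 1129 in the KO-labelled libraries, without overlap (log2 fold change 0.15 with SE 0.058, limma adjusted p = 0.426). In Ifnar1, Ifnar2 and Ifngr1 the groups overlapped, as they did in the 5 genes of the JAK-STAT list, of which 0 had an unadjusted p under 0.05. Irf1, which interferon gamma induces, had 5091, 5627, 5010.3 and 5402 in wild-type, against 5671, 5671 and 5498 in the KO-labelled libraries (log2 fold change 0.09 with SE 0.051, limma adjusted p = 0.614). Its groups overlapped.

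In the list of interferon regulatory factors, Irf2, known as an antagonist of Irf1, had the smallest p. Its counts were 5012, 5169, 5198 and 5456 in wild-type, against 4942, 4678 and 4617 in the KO-labelled libraries, lower with the KO label and without overlap (log2 fold change -0.13 with SE 0.047, limma adjusted p = 0.396). It was the 1 gene of 7 in that list with an unadjusted p under 0.05 (9.73% of all tested genes). In the inducing pathways, Trim25, the ubiquitin ligase that activates RIG-I, had 5843, 6054, 6095 and 6195 in wild-type, against 7149, 6600.3 and 6927 in the KO-labelled libraries (log2 fold change 0.19 with SE 0.045, limma adjusted p = 0.183). Of the 15 tested genes of that list, 3 had an unadjusted p under 0.05, all higher. Over all tested genes the share was 5.0% in this direction and 9.73% in either. In that list 0 were differentially expressed. Among the negative regulators, Rnaseh2b, a subunit of the enzyme that removes RNA from DNA, had 1735, 1829.97, 1807 and 1658 in wild-type, against 1304, 1594 and 1320.1 in the KO-labelled libraries (log2 fold change -0.33 with SE 0.079, limma adjusted p = 0.191). It was lower with the KO label without overlap. Rnaseh2b was the 1 of 13 tested negative regulators with an unadjusted p under 0.05 (9.73% of all tested genes). Of the 57 other interferon-stimulated genes, 38 had a log2 fold change above 0 (50.6% of all tested genes did), with a median of 0.04. Of the 57, 5 had an unadjusted p under 0.05 (4 higher, 1 lower), no larger a share than the 9.73% of all tested genes. Slfn8, of the Schlafen family, had the smallest p, at 2950.2, 2786, 2995 and 2810.1 in wild-type, against 3549, 3119.9 and 3516 in the KO-labelled libraries (log2 fold change 0.23 with SE 0.059, limma adjusted p = 0.204).

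Other cell types in the sort were followed by their marker lists, since interferon-stimulated genes differ in level between cell types. In bulk RNA, fewer cells of a type and less RNA per cell cannot be told apart. Of 10 marker lists, 1 had summed levels that did not overlap between groups, that of 6 megakaryocyte genes. It summed to 7062 to 8906 normalized counts in wild-type but 9238 to 12026 with the KO label, all 6 genes had a log2 fold change above 0 (median 0.36) with 0 of 6 free of overlap singly, 0 was at 0 in all libraries, and its part in the results above was not tested. The 12 plasmacytoid dendritic cell markers, a cell type known for interferon production, summed to 22361 to 25529 and 22185 to 27470, with Klk1 and Cd209d at 0 in all libraries. Bst2 is both 1 of these markers and 1 of the 39 members. Without it the sums were 20409 to 23743 in wild-type and 20100 to 25536 with the KO label. The 13 T and NK cell markers summed to 4146 to 5648 and 4122 to 6730, highest in PROSER1 KO replicate 1. The 12 monocyte and macrophage markers summed to 7607 to 9310 and 8448 to 9127, while 9 of the 12 had a log2 fold change above 0 (median 0.21). Their part in the results was not tested either. The ranges of these 3 lists overlapped between the groups, as did those of the other 6 (the LSK gate, LSK progenitor, lineage gate, neutrophil, B and plasma cell, and erythroid lists). Of the 14 B and plasma cell markers, 11 had a log2 fold change below 0 (median -0.20), and their part was not tested.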

How the data were processed

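RNA of LSK cells was sequenced in 4 wild-type and 3 PROSER1 KO libraries, grouped by their labels. Per the study's methods and the submitters' processing notes, the authors used Trimmomatic for trimming, STAR for alignment to mm10 and featureCounts for pairs per gene, and divided by DESeq2 size factors. The deposited values are thus a scaled signal rather than counts. The methods and the table's header name different GENCODE releases, and the strand setting is not given in the sources used here. Whole read pairs were recovered from them (100% of values whole within 0.01). The columns of other samples numbered 0.

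Genes with a mean of at least 10 were tested with limma 3.58.1 in R 4.3.3 (lmFit, eBayes with trend) on log2(normalized count + 1), with Benjamini-Hochberg adjustment over all 16251 tested genes. Fold changes are on that scale, which understates changes of low genes. The alternatives changed the pseudocount (0.1, 10) or the filter (none, 50), or used no trend, robust variance, quantile and TMM normalization, edgeR 4.0.16, DESeq2 1.42.0, no fold minimum, the replicate number as a block, and each library left out. The procedures were tested on simulated data.

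The members, lists and tests were chosen with earlier results of these data known. Roles and pathway and marker lists were written from general knowledge. Except for 1 gene, which is not reported here, named in full were the 2 members of each role with the smallest p, all members of roles with up to 3 genes, the 5 highest per kilobase, members whose groups do not overlap, the smallest p of each pathway list, Irf1, and the 4 interferon receptor genes of types I and II. Exon lengths and positions come from GENCODE M21 (GRCm38), and motifs from RefSeq promoters of GRCm38.p6. Exons of 14 members overlap those of another gene, 7 on the same strand and 7 on the other.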

Additional observations from a re-analysis of the deposited data

Results flagged for a closer look

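Ifnar2 in wild-type replicate 2 was at 3669.9 normalized counts, against 3843 to 3863 in the other 3 wild-type libraries, a gap to the nearest value that exceeded the 95% critical value of Dixon's test for 4 samples. It was 1 of 52 genes checked in this way, and chance alone flags about 1 in 20 groups. The critical value for 4 samples does not cover the 3 KO-labelled libraries, so the high value of Oas2 in PROSER1 KO replicate 3 described above lies outside this check. The difference between the groups for this gene was 0.04 on the log2 scale.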

How the results depend on the processing

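The number of members past the study's thresholds was 0 under every alternative except no fold minimum, which gave 1 (Gbp3). Members with an unadjusted p under 0.05 numbered 5 without the mean-variance trend and 5 to 11 with each library left out in turn, lowest without PROSER1 KO replicate 1. The median log2 fold change of the members was 0.088 to 0.12 with 1 library left out, highest without wild-type replicate 2, and the members above 0 numbered 29 (without PROSER1 KO replicate 3) to 36. Over all genes, 17 passed the thresholds without the trend, 80 with robust variance, 165 with DESeq2 and 23 to 42 with a library left out, against 42. Direction was kept in every fit by 25 of 39 members and changed in 28 of 701 fits of single members. With single libraries left out, the log2 fold change ran from -0.079 to 0.047 for Ddx58, -0.12 to 0.079 for Zbp1, -0.068 to 0.11 for Irf7, -0.010 to 0.057 for Stat2, -0.018 to 0.089 for Isg15, -0.0067 to 0.13 for Herc6, -0.17 to 0.27 for Ifit3b, -0.021 to 0.27 for Oas2, -0.14 to 0.068 for Oasl1, -0.059 to 0.079 for Mx1, -0.0062 to 0.14 for Mx2, -0.038 to 0.23 for Rsad2, -0.020 to 0.066 for Ifi44 and -0.022 to 0.12 for Xaf1. The replicate numbers did not pair the libraries (correlations of deviations 0.02, 0.06 and -0.11 for numbers 1 to 3, and not every sample was closest to its own number). With the number as a replicate block, wild-type replicate 4 was alone in its block. The log2 fold changes were therefore the same as in the fit without that library, and the changes of direction are counted in both fits. In the block fit, 0 members passed the thresholds, 8 had an unadjusted p under 0.05, and the adjusted p of Gbp3 was 0.0575 in limma. Ifit3b, Mx1, Mx2 and Zbp1 had log2 fold changes of -0.030, 0.079, -0.0062 and 0.079 in both fits. The causes were not tested.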
